A study of Mus musculus with 18 samples.

Results

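Fatty acid oxidation and peroxisomal genes were followed across 6 groups of mice as a fixed list of 35 symbols, all 35 of which were present among the 15035 gene rows. The list was divided by the site of the encoded step into 20 mitochondrial genes and 9 peroxisomal genes. Set apart, whatever the site of their product, were 2 transcriptional regulators (Ppara and Ppargc1a) and 4 other genes (Acot1, Acot2, Pdk4 and Fabp3). RNA sequencing had been done on whole kidney cortex, with 3 mice in each group. The healthy group consisted of vehicle-treated animals of the MRL/MpJ wild type strain, and the 5 other groups were MRL/lpr mice, which carry a mutation of Fas and develop a lupus-like nephritis. These received vehicle, mycophenolate mofetil (MMF, an inhibitor of purine synthesis), FK506 (tacrolimus, a calcineurin inhibitor), prednisone (a glucocorticoid) or a multi-target treatment whose component drugs the labels do not name. Ages, doses and duration of treatment are not given in the labels used here. The disease comparison sets one strain against another, so that the lpr allele and any other difference between the 2 stocks cannot be told apart.

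Long-chain fatty acids are activated to acyl-CoA, carried into mitochondria by the carnitine shuttle and shortened there by repeated rounds of dehydrogenation, hydration, dehydrogenation and thiolysis, with electrons passed through the electron transfer flavoprotein to the respiratory chain. Peroxisomes shorten very long-chain and branched chains with their own set of enzymes, and catalase removes the hydrogen peroxide that the first step produces. PPAR alpha, a nuclear receptor that binds fatty acids, drives many of these genes, and PGC-1 alpha is its coactivator. In the kidney the proximal tubule, which reabsorbs most of the filtrate, relies on this pathway for its energy and is rich in both organelles.

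Values are deposited log2 expression values, so that a difference of 1 is a doubling or halving, and they are not scaled by gene length and were not used to rank one gene above another. Read totals recovered from the values ranged from 28939850 to 41066958 per library. The values of 27 members corresponded to whole reads in at least 17 libraries, and these stood on at least about 521 reads in each library. Those of Ppara, Ppargc1a, Hadhb, Eci2, Etfb, Acsm2, Acsm3 and Pex5 did not, so that their read numbers are not known. Fas lay at 6.63, 6.85 and 6.78 in the healthy mice and between 7.73 and 8.28 in the 15 MRL/lpr mice. The gene that carries the lpr mutation was thus higher, not lower, in MRL/lpr libraries; the 2 strains did not overlap, but a level over the whole gene does not show whether its transcripts are intact and is no check of the mutation. The proximal tubule markers Lrp2 and Slc34a1 were high in all 18 libraries, the lowest values being 14.78 and 15.88, both in vehicle mouse 36. Several libraries stood apart. Vehicle mouse 36 was the most distant on the first principal component of all genes (79.3, against 17.2 and 34.7 for the other vehicle mice). Vehicle mouse 17 held fat transcripts, with Adipoq at 11.30 against 3.89 and 4.07 in the other vehicle mice, and FK506 mouse 12 held the adrenal gene Cyp11a1 at 11.37 against 5.49 and 5.73. The muscle marker Myh4 stayed between 7.51 and 8.19 in all libraries. MMF mice 14 and 27 lay apart from MMF mouse 1 on the second component (-51.9 and -48.1 against 20.0).

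The comparison of vehicle-treated MRL/lpr mice with healthy mice asks how the pathway differs in diseased kidney. Transcripts for enzymes of both organelles were lower in the diseased cortex. Of the 35 genes, 13 fell and none rose at an adjusted p below 0.05 (limma, Benjamini-Hochberg over all 15035 genes), against 6.76% of all genes that were called lower and 15.7% called higher. Of all called genes 69.8% were higher, a share that was 43.7% after quantile normalization and 37% after centring each library on its median, with the median of all genes moving from 0.09 to -0.07 and -0.10; after centring 22 of the 35 genes fell. The point estimate lay below 0 for 34 of 35 genes, with a median difference of -0.63, while over all genes tested the median was 0.09 and 40.1% lay below 0. In 28 genes every vehicle mouse lay below every healthy mouse, which held for 19.8% of all genes, and in no gene did all vehicle mice lie above, which held for 32.6% of all genes. The calls were 6 of 9 among peroxisomal genes (median -0.54), 7 of 20 among mitochondrial genes (median -0.65), 0 of 2 regulators and 0 of 4 other genes; at an unadjusted p below 0.05 these counts were 6, 15, 1 and 2, or 68.6% of the 35 genes against 37.2% of all genes.

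The number of calls depended on single libraries. It was 5 without vehicle mouse 36, where 2.23% of all genes were called lower, 6 without any one of the 3 healthy mice (2.66% to 3.02%) and 18 without vehicle mouse 17 (7.51%). Acaa1a, Acaa1b, Ehhadh, Cat and Acaa2 passed in all 13 alternatives run on the disease comparison. Without vehicle mouse 36 the calls of Cpt2, Hadha, Hadhb, Hadh, Etfa, Etfdh, Hsd17b4 and Pex11a were lost. Among genes that did not pass in either case, the differences without mouse 36 were smaller by over 1.5 times for Echs1 (-0.27), Fabp3 (-0.13), Decr2 (-0.21), Acsl1 (-0.41), Acadvl (-0.30), Acadm (-0.44), Etfb (-0.17), Crat (-0.24) and Pex5 (-0.11), larger for Acot2 (-0.54), and of the other sign for Ppargc1a (0.03) and Pdk4 (-0.60).

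**Figure D1:**
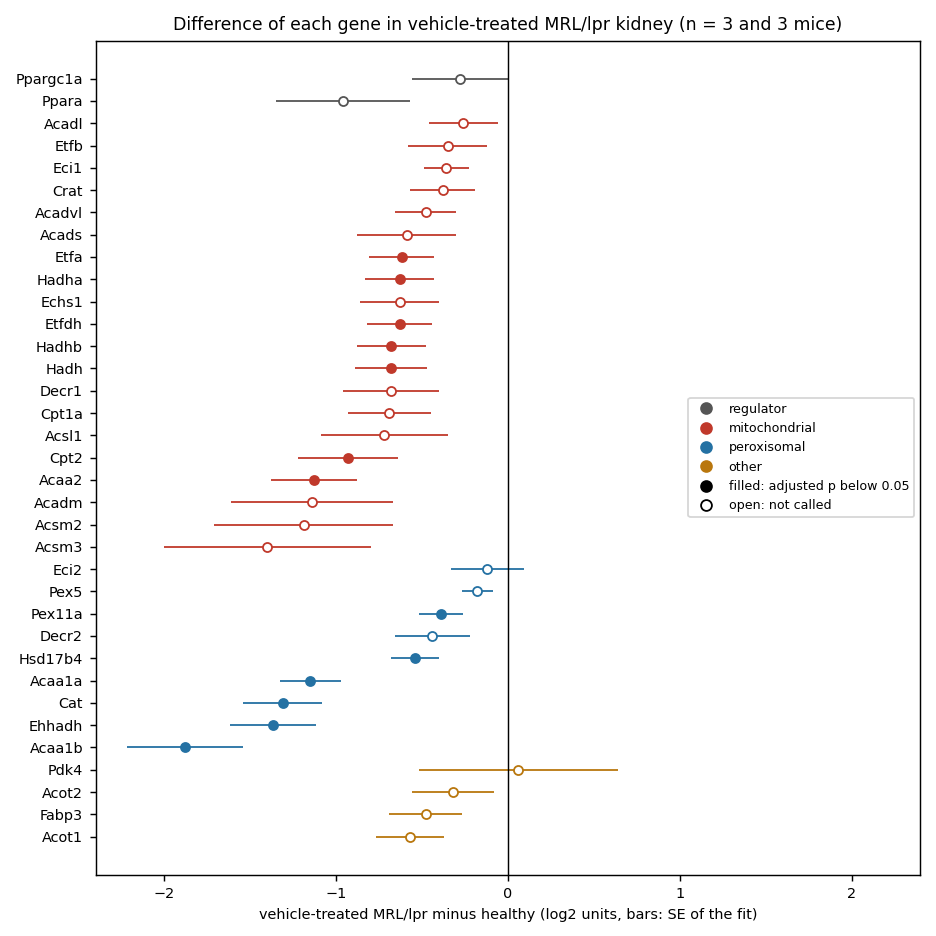
Log2 difference between vehicle-treated MRL/lpr and healthy kidney cortex for the 35 genes, grouped by compartment, with the standard error of the fit as bars and 3 mice per group. Filled points passed an adjusted p below 0.05, and they are the 13 genes that fell, from Pex11a at -0.39 to Acaa1b at -1.88.

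Among the genes that passed, the 4 largest differences by point estimate were peroxisomal. Acaa1b, the second of the 2 mouse genes for the thiolase that ends a round of peroxisomal oxidation, stood at 14.40, 14.58 and 14.66 in the healthy mice and at 12.17, 13.34 and 12.50 in vehicle mice 7, 17 and 36. It fell by 72.8%, a log2 difference of -1.88 (SE 0.34, adjusted p = 0.00171). Acaa1a, the other thiolase gene, stood at 13.18, 13.32 and 13.36 against 12.03, 12.49 and 11.88, a difference of -1.15 (SE 0.18, adjusted p = 0.000508). In both genes the 2 groups were well apart, and mouse 17 was the highest of the vehicle mice. Ehhadh, the bifunctional enzyme that carries out the middle steps for straight chains, had values of 15.09, 14.92 and 15.10 in healthy and 13.77, 14.18 and 13.06 in vehicle mice, and fell by 61.4% (-1.37, SE 0.25, adjusted p = 0.00159). Cat, the gene for catalase, went from 15.83, 15.77 and 15.81 to 14.68, 14.80 and 13.99, and fell by 59.7% (-1.31, SE 0.23, adjusted p = 0.0014). In all 4 genes the healthy mice lay close together and apart from every vehicle mouse.

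Hsd17b4, the bifunctional enzyme for branched and very long chains, was at 13.62, 13.62 and 13.62 in the healthy mice and 13.22, 13.13 and 12.90 in the vehicle mice, and differed by -0.54 (SE 0.14, adjusted p = 0.0142). Pex11a, which promotes peroxisome division, differed by -0.39 (SE 0.13, adjusted p = 0.0436). Without mouse 36 neither passed (-0.45 and -0.28). The remaining peroxisomal genes did not pass. Decr2, a reductase for unsaturated chains, differed by -0.44 (SE 0.22, adjusted p = 0.167), Pex5, the receptor that imports most peroxisomal enzymes, by -0.18 (SE 0.09, adjusted p = 0.169), and Eci2, an isomerase for unsaturated chains, by -0.12 (SE 0.21, adjusted p = 0.715). In all 9 peroxisomal genes the 3 vehicle mice lay below the 3 healthy mice.

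Acaa1a and Acaa1b lie close together on chromosome 9 (GENCODE M21, GRCm38: Acaa1a at chr9:119339676-119350299 on the plus strand, Acaa1b at chr9:119148023-119157093 on the minus strand). Their longest coding transcripts were 96% identical over 1450 aligned bases, and 34% of the 50-base windows of Acaa1a occurred exactly in Acaa1b. Acot1 and Acot2 were 93.8% identical over 1337 bases with 23.7% of windows shared. How reads from such stretches were counted is not given in the sources used here, so the division of signal within either pair is uncertain.

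The mitochondrial genes are given in the order of the pathway, from activation and the carnitine shuttle onward. Cpt2, the carnitine acyltransferase of the inner membrane, stood at 12.97, 13.07 and 13.12 in healthy and 11.82, 12.55 and 12 in vehicle mice and fell by 47.5% (-0.93, SE 0.29, adjusted p = 0.0345), a call lost in 5 of 13 alternatives. Its partner of the outer membrane, Cpt1a, which sets the rate of entry, differed by -0.69 (SE 0.24, adjusted p = 0.0528) and did not pass. The SE of Cpt1a draws on all 6 groups. Its SD was 0.08 in healthy and 0.16 in vehicle mice, and 0.61 in the MMF mice, which are outside this comparison. Acsl1, which activates long chains, differed by -0.72 (SE 0.37, adjusted p = 0.17), and Crat, the carnitine acetyltransferase of the matrix, by -0.38 (SE 0.19, adjusted p = 0.16). All 4 had every vehicle mouse below every healthy mouse. The acyl-CoA dehydrogenases, which open each round for chains of a given length, gave no call: Acadvl differed by -0.48 (SE 0.18, adjusted p = 0.0626), Acadl by -0.26 (SE 0.20, adjusted p = 0.353) and Acads by -0.59 (SE 0.29, adjusted p = 0.148). Acadm, the medium-chain enzyme, differed by -1.14 (SE 0.47, adjusted p = 0.0908); its value was 13.26 in vehicle mouse 36, while mice 7 and 17 had 15.11 and 15.62, and without mouse 36 the difference was -0.44.

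Hadha and Hadhb encode the alpha and beta subunits of the mitochondrial trifunctional protein, which carries out the last 3 steps of a round on long chains. Hadha stood at 13.94, 14.01 and 14.02 in the healthy mice and 13.37, 13.67 and 13.05 in the vehicle mice, a difference of -0.63 (SE 0.20, adjusted p = 0.0349). Hadhb stood at 14.11, 14.17 and 14.19 and 13.66, 13.86 and 12.91, a difference of -0.68 (SE 0.20, adjusted p = 0.0251). Mouse 36 was the lowest in both, and without it the differences were -0.47 and -0.40 and neither passed; each call was lost in 6 of 13 alternatives, among them quantile normalization. Hadh, the short-chain dehydrogenase of the third step, differed by -0.68 (SE 0.21, adjusted p = 0.0329), or by -0.38 without mouse 36, and Echs1, the short-chain hydratase, by -0.63 (SE 0.23, adjusted p = 0.0657). Acaa2, the mitochondrial thiolase, was at 14.07, 14.17 and 14.16 in healthy and 12.80, 13.61 and 12.62 in vehicle mice, and fell by 54.2% (-1.13, SE 0.25, adjusted p = 0.00558). Among the mitochondrial genes that passed, Acaa2 had the largest difference.

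Electrons from the dehydrogenases pass to the flavoprotein made of Etfa and Etfb and then to its oxidoreductase Etfdh. Etfdh stood at 13.17, 13.20 and 13.25 in healthy and 12.64, 12.73 and 12.36 in vehicle mice (-0.63, SE 0.19, adjusted p = 0.0274). Etfa stood at 14.23, 14.23 and 14.21 and 13.80, 13.99 and 13.02 (-0.62, SE 0.19, adjusted p = 0.0308). Without mouse 36 neither passed, at -0.52 for Etfdh and -0.33 for Etfa. Etfb, whose groups overlapped, differed by -0.35 (SE 0.23, adjusted p = 0.284). The accessory enzymes for unsaturated chains did not pass, with Decr1 at -0.68 (SE 0.28, adjusted p = 0.091) and Eci1 at -0.36 (SE 0.13, adjusted p = 0.0577).

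The medium-chain acyl-CoA synthetases Acsm2 and Acsm3 had wide spreads. Acsm2 stood at 16.73, 16.64 and 16.63 in healthy and 15.73, 15.87 and 14.83 in vehicle mice (-1.19, SE 0.52, adjusted p = 0.109). Acsm3, the member with the lowest values, stood at 8.76, 8.88 and 8.23 and at 6.17, 9.19 and 6.33 in vehicle mice 7, 17 and 36 (-1.40, SE 0.60, adjusted p = 0.105). Its lowest value lay at about 33.0 on the scale of reads, although its values were whole reads in only 2 libraries. Mouse 17, the library with fat transcripts, was the highest of all 18 for Acsm3, and without it the difference was -2.38 (adjusted p = 0.00103). Whether the fat transcripts and this value share a source was not tested.

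The regulators and the 4 other genes gave no call. Ppara stood at 13.71, 13.63 and 13.50 in healthy and 12.96, 12.78 and 12.23 in vehicle mice, and its difference of -0.96 (SE 0.39, adjusted p = 0.0883) did not pass although the groups did not overlap. Its SD was 0.11 and 0.38 in these 2 groups and 0.81 with MMF, which also enters the SE. Ppargc1a stood at 12.38, 12.25 and 12.22 and 12.24, 12.39 and 11.39 (-0.28, SE 0.28, adjusted p = 0.49), with only mouse 36 below the healthy range. The acyl-CoA thioesterases Acot1 and Acot2 differed by -0.57 (SE 0.20, adjusted p = 0.0504) and -0.32 (SE 0.24, adjusted p = 0.348), and Fabp3, which binds fatty acids in the cytosol, by -0.48 (SE 0.21, adjusted p = 0.114). Pdk4, the kinase that shuts off pyruvate dehydrogenase, was the single gene with an estimate above 0, at 0.06 (SE 0.58, adjusted p = 0.955), with vehicle mouse 36 at 11.80 and the other vehicle mice at 9.79 and 9.86.

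Promoter sequence was looked at because many of the genes are PPAR alpha targets and 13 fell in the disease comparison. RefSeq promoter windows (GRCm38.p6, 250 bases before to 50 after each start) matched 31 of the 35 genes, in 35 windows; Crat, Acaa2, Decr1 and Hsd17b4 had none. PPAR alpha and its partner RXR bind a direct repeat of the half-site AGGTCA with 1 base between the copies. That repeat was searched on both strands with up to 2 mismatches in the 12 half-site bases, and 3 of the 35 windows (8.57%) held it, against 1268 of all 32851 windows (3.86%). A match of this kind describes the letters only. The 3 matches are shown with 30 bases before and 15 after, all upstream of the start, 5′ to 3′ on the strand of the gene, with the matched 13 bases in capitals; in Etfa the repeat reads on the opposite strand.
Cat: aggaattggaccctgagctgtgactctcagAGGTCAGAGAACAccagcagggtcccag
Echs1: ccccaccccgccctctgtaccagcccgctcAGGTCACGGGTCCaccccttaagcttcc
Etfa: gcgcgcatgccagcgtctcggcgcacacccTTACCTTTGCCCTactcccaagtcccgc
The positions are chr2:103485330-103485387, minus strand for Cat, chr7:140116477-140116534, minus strand for Echs1 and chr9:55512293-55512350, minus strand for Etfa, which place the first matched base 204, 83 and 77 bases before the RefSeq start. Cat and Etfa fell in the disease comparison and Echs1 did not pass. Acaa1a, Acaa1b, Ehhadh, Pex11a, Cpt2, Hadha, Hadhb, Hadh and Etfdh, which also fell, have no match in their windows at this setting, which says only that these letters are not within the 300 bases searched.

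Hadha and Hadhb are transcribed away from each other on chromosome 5, so the trifunctional protein's subunits share one stretch of upstream sequence. The 85 bases that lie before the start of both genes in GENCODE and RefSeq (chr5:30155163-30155247, plus strand) have a G and C content of 69.4% and are shown as read toward Hadhb.
Hadha-Hadhb: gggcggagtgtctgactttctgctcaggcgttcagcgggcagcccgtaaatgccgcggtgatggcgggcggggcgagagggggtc
The differences of the pair, -0.63 and -0.68 in the disease comparison, stand beside this arrangement as a description.

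Tubule and leukocyte transcripts moved alongside these genes. Of 24 proximal tubule markers, 10 fell and none rose, with a median of -1.12, and the median of the marker list by vehicle mouse was -0.71, -0.68 and -1.99 relative to the healthy mean. The mitochondrial genes gave -0.52, -0.31 and -1.0 and the peroxisomal genes -0.40, -0.49 and -0.90 in the same mice 7, 17 and 36, so that mouse 36 was lowest in all 3 lists. Of 16 leukocyte markers, 13 rose and none fell, with a median of 2.36. None of the 8 collecting duct markers passed, and 1 of 10 markers of the loop and distal tubule fell (Calb1, -1.22). In whole cortex, fewer cells of a type and less RNA per cell cannot be told apart, and the part of the tubule and leukocyte transcripts in the fall of these genes was not tested.

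**Figure D2:**
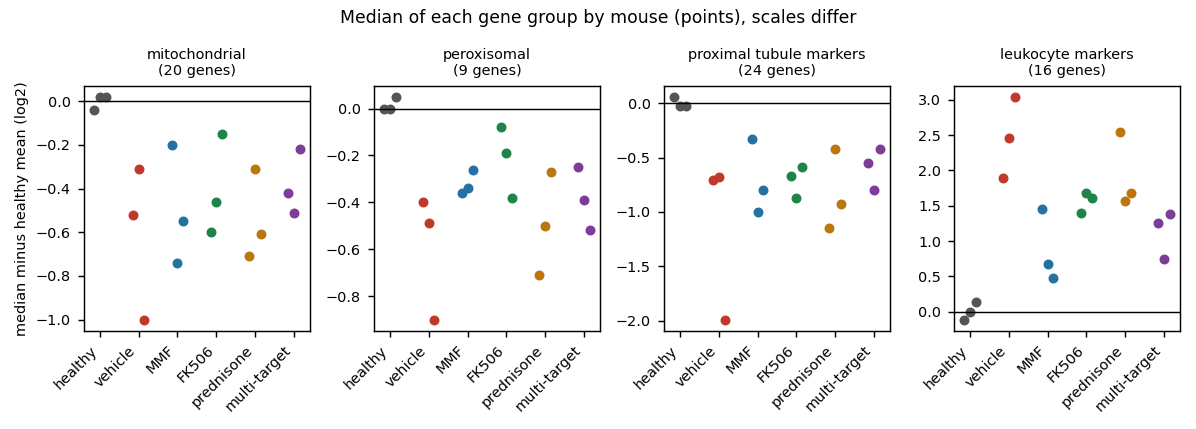
Median over each gene list of the log2 value minus the mean of the 3 healthy mice, with 1 point per mouse and a separate vertical scale in each panel. The mitochondrial and peroxisomal medians lay below the healthy mice in all 15 MRL/lpr mice, as did the proximal tubule markers, while leukocyte markers lay above.

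Other genes of the pathway were taken from lists that leave out the 35. In the disease comparison, of 39 further peroxisomal enzymes and transporters 11 fell and none rose (median -0.49), led by Abcd3, a transporter of fatty acyl-CoA into peroxisomes (-1.10, SE 0.16, adjusted p = 0.000276), Nudt12 (-0.95) and Ech1 (-0.69). Of 30 further mitochondrial genes of fatty acid and related acyl-CoA oxidation 10 fell and 1 rose (median -0.65). Acad11, an acyl-CoA dehydrogenase, was lower by a log2 difference of -1.28 and Acad8 by -0.74, while Acsl5, another acyl-CoA synthetase, rose by 0.85. Of 15 further PPAR alpha target genes 6 fell and none rose, led by the monoacylglycerol lipase gene Mgll (-1.37, SE 0.22, adjusted p = 0.00054) and the fatty acid hydroxylases Cyp4a31 (-1.03) and Cyp4a10 (-1.26). Peroxins, the proteins that build peroxisomes, gave 2 of 15 lower (Pex7 at -0.39 and Pex19 at -0.31) and none higher, with a median of -0.19. Of the genes named here, Abcd3, Nudt12, Ech1, Acad11, Acsl5, Mgll, Cyp4a31 and Cyp4a10 passed in all 13 alternatives, Acad8 in 11, Pex19 in 9 and Pex7 in 8.

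Regulators outside the list were mixed. Of 25 further transcriptional regulators 4 fell and 2 rose, with Prkaa2, a catalytic subunit of AMP-activated kinase, at -0.78, Esrrg at -0.71 and Pprc1 at 0.79. Uptake and binding genes gave 1 lower and 3 higher of 13 (Dbi at 0.49, Fabp5 at 1.18 and Slc22a5, the carnitine transporter, at -0.93), and fatty acid synthesis genes 1 lower and 2 higher of 12 (Dgat1 at 0.37, Scd2 at 0.43 and Dgat2 at -0.78). Prkaa2 and Esrrg passed in all 13 alternatives, Dgat1 in 11 and Dbi in 9, while Pprc1, Slc22a5 and Scd2 passed in 7 of 13, Dgat2 in 6 of 13 and Fabp5 in 6 of 12.

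Each drug was then set against vehicle within MRL/lpr mice, the comparison that asks whether treatment moved the genes from their level in disease. None of the 35 genes passed in any arm (limma). Over all genes 0.133% were called higher and 1.45% lower with MMF, and 0% in either direction with FK506, prednisone and multi-target. At an unadjusted p below 0.05 there were 13 of the 35 genes with MMF, 12 with FK506, 2 with prednisone and 7 with multi-target. As shares these were 37.1%, 34.3%, 5.71% and 20% of the 35 genes, against 29.9%, 19.9%, 3.15% and 15.6% of all genes. The 4 comparisons share the 3 vehicle mice. Median differences over the 35 genes were 0.31, 0.27, 0.12 and 0.26 in that order, against -0.05, -0.01, 0.03 and -0.02 over all genes. Without vehicle mouse 36 they were 0.09, 0.14, -0.06 and 0.12, so that the prednisone median changed sign. Genes in which all treated mice lay above all vehicle mice numbered 8 with MMF (5.35% of all genes), 11 with FK506 (9.84%), 2 with prednisone (5.41%) and 5 with multi-target (7.55%). The mitochondrial genes went both ways by group mean. With MMF, Acads (12.15) and Acsm2 (14.96) lay below vehicle (12.38 and 15.48), and Echs1 (13.79) and Etfa (14.06) above it (13.17 and 13.60). With FK506 only Acadl, Acads, Decr1, Acsm2 and Acsm3 of the mitochondrial genes lay below vehicle, and with prednisone Cpt2 did too. With multi-target only Cpt2, Acadl, Decr1 and Acsm3 lay below it, and Acsm2 had the same mean (15.48). Acsm3 lay below vehicle in all 4 arms, at 6.11, 5.83, 5.65 and 6.36 against 7.23, where vehicle mouse 17 stood at 9.19.

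The peroxisomal genes lay above vehicle by point estimate in all 4 arms, 9 of 9 each time, with medians of 0.44, 0.43, 0.12 and 0.28. Over all genes the medians were -0.05, -0.01, 0.03 and -0.02. Values above vehicle were not particular to the peroxisomal genes, as most mitochondrial genes also lay above it with FK506, prednisone and multi-target. Without vehicle mouse 36 the peroxisomal counts were 9 of 9 with MMF and FK506, 5 of 9 with prednisone and 8 of 9 with multi-target, with medians of 0.34, 0.31, 0.02 and 0.17. Leukocyte markers moved the other way in the same arms, with list medians of -1.50, -1.03, -0.56 and -1.39 against vehicle, and proximal tubule markers had medians of 0.20, 0.38, 0.28 and 0.42; the part of either in these values was not tested. Cat stood at 15.06, 14.94 and 15.47 with MMF, 15.29, 15.17 and 15.24 with FK506, 14.30, 15.25 and 14.80 with prednisone and 14.93, 14.91 and 15.20 with multi-target, against 14.68, 14.80 and 13.99 with vehicle. The MMF, FK506 and multi-target mice all lay above the vehicle mice and below the healthy mice, yet the differences from vehicle, 0.67, 0.75 and 0.52, had adjusted p of 0.0945, 0.171 and 0.302. Hsd17b4 stood at 13.26, 13.52 and 13.78 with MMF and 13.61, 13.56 and 13.36 with FK506 (differences of 0.43 and 0.43, adjusted p = 0.0789 and 0.171). The thiolase genes had smaller differences from vehicle than Cat, with Acaa1a between 0.08 and 0.31 and Acaa1b between 0.10 and 0.46 over the 4 arms.

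MMF gave the smallest adjusted p-values. Acsl1 stood at 14.14, 15.44 and 15.38 in MMF mice 1, 14 and 27 against 13.76, 13.92 and 12.91 with vehicle, a difference of 1.46 (SE 0.37, adjusted p = 0.0524). Ppara stood at 13.11, 14.63 and 14.37 against 12.96, 12.78 and 12.23, a difference of 1.38 (SE 0.39, adjusted p = 0.0621). Cpt1a stood at 14.07, 15.19 and 15.07 (0.74, SE 0.24, adjusted p = 0.0817) and Ppargc1a at 12.03, 13.10 and 13.03 (0.72, SE 0.28, adjusted p = 0.116). In each of these genes MMF mice 14 and 27 were far above mouse 1, and they also exceeded every healthy mouse. Leaving out mouse 1 gave 12 calls among the 35 genes, 11 higher and 1 lower (Acads), with Ppara at 1.84 and Acsl1 at 1.88; leaving out vehicle mouse 7 gave 4. Over all genes 15.8% were called higher and 21% lower without MMF mouse 1, and 2.15% and 10.7% without vehicle mouse 7.

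The other drug arms held mice with a like pattern beside mice without it. Ppara stood at 13.97, 13.43 and 13.19 with FK506, 12.99, 13.44 and 14.32 with prednisone and 13.18, 13.83 and 12.94 with multi-target, in mouse order. Acsl1 stood at 14.80, 14.88 and 14.27 with FK506, at 13.56, 13.73 and 14.66 with prednisone and at 14.82, 14.69 and 14.07 with multi-target. Prednisone mouse 35 had the highest Ppara of its arm at 14.32, beside 12.99 and 13.44. Pdk4 was at 10.69, 12.92 and 11.42 with MMF, the highest value of all 18 libraries being 12.92 in mouse 14. On the second principal component of all genes, which held 28.8% of the variance, MMF mice 14 and 27 lay at -51.9 and -48.1, prednisone mouse 35 at -31.2, multi-target mouse 18 at -29.5 and FK506 mice 3 and 12 at -26.9 and -20.5, while MMF mouse 1 lay at 20.0 and the healthy mice between 32.7 and 35.1. Among the 35 genes, 12 had a negative and 23 a positive weight on it, where 54% of all genes had a negative one. Pdk4, Acsl1 and Ppara were in the lowest 3.37% of all genes, and Cpt2, Acaa1b, Acsm2 and Acsm3 were at the other end, at percentiles of 97.4, 98.2, 99.4 and 99.6.

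Genes outside the pathway, chosen after their values were seen, also set MMF mice 14 and 27 apart from MMF mouse 1. Igfbp1, a gene induced when insulin is low, stood at 14.91 and 13.42 in MMF mice 14 and 27 and 9.70 in mouse 1, and Kap, an androgen-dependent proximal tubule gene, at 10.71 and 7.79 against 15.87 and at 17.81, 17.75 and 17.87 in the healthy mice. Outside the MMF arm, Kap lay below every vehicle mouse (14.12 to 16.92) in both prednisone mice 35 (8.95) and 29 (12.98). The same held for FK506 mice 3 (12.14) and 12 (12.07) and multi-target mice 18 (11.99) and 6 (13.31). It did not in FK506 mouse 24 (17.42), prednisone mouse 23 (14.25) and multi-target mouse 39 (15.71). Of the mice with low Kap outside the MMF arm, prednisone mouse 29 lay at 7.2 on the second component and multi-target mouse 6 at -8.7. The others lay between -31.2 and -20.5. A link between Kap and this component was not tested. Proximal tubule markers by list median were -0.33, -1.0 and -0.80 in MMF mice 1, 14 and 27. Of 16 leukocyte markers 3 fell with MMF (Ptprc at -1.64, Cd68 at -2.01 and Coro1a at -1.68) and none rose, calls that held in 4 of 13 alternatives. The part of these transcripts in the MMF differences was not tested. Of the 15 further PPAR alpha target genes, Cyp4a14 (2.23, SE 0.39, adjusted p = 0.0429) and Cyp4a10 (1.47, SE 0.27, adjusted p = 0.0429) rose with MMF and none fell. Both calls held in 5 of 13 alternatives, and no gene of the 15035 was called for MMF against vehicle under quantile normalization, centring, the fit of these 2 groups only, or when any one of vehicle mice 17 and 36 and MMF mice 14 and 27 was left out. None of the 30 further mitochondrial genes passed.

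**Figure D3:**
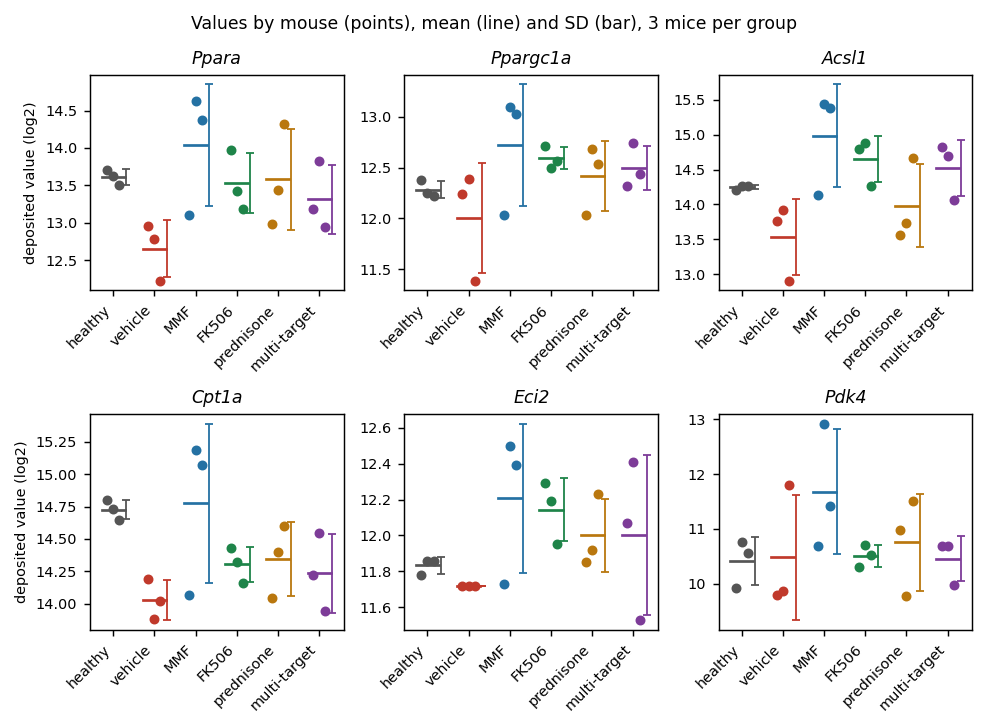
Deposited log2 values by mouse for Ppara, Ppargc1a, Acsl1, Cpt1a, Eci2 and Pdk4, chosen after the values were seen, with the mean as a line and the SD as a bar for 3 mice per group. MMF mice 14 and 27 lay above all healthy mice in all 6 genes, whereas MMF mouse 1 lay below them in 5 genes and within their range for Pdk4 (10.69).

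Each treated arm was also set against the healthy mice. This shows what differed from healthy under treatment, whether or not it passed in the disease comparison. The 4 comparisons and the disease comparison share the 3 healthy mice. With MMF 7 of the 35 genes were lower (6.37% of all genes lower and 9.56% higher), with FK506 3 (1.54% and 5.73%), with prednisone 10 (3.29% and 13.4%) and with multi-target 4 (1.65% and 5.33%), and none was higher in any arm. Of all called genes 60%, 78.8%, 80.3% and 76.4% were higher, shares that were 47%, 53.4%, 46.7% and 50.5% after quantile normalization and 46.4%, 53.3%, 41.7% and 49.2% after centring. Medians over the 35 genes were -0.37, -0.31, -0.45 and -0.34. All treated mice lay below all healthy mice in 18, 19, 25 and 23 genes, against 16.9%, 16.1%, 16.2% and 16.5% of all genes. Beside these, 6, 1, 4 and 0 of 24 proximal tubule markers were lower and 5, 9, 13 and 5 of 16 leukocyte markers higher, and their part in the result was not tested.

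Both thiolase genes were lower than in healthy mice in every arm. Acaa1b stood at 13.60, 12.62 and 13.18 with MMF, 12.94, 12.79 and 13.66 with FK506, 12.56, 13.35 and 12.42 with prednisone and 12.97, 12.56 and 13.43 with multi-target, where the lowest healthy mouse was at 14.40. The differences were -1.42 (SE 0.34, adjusted p = 0.0182), -1.42 (SE 0.34, adjusted p = 0.025), -1.77 (SE 0.34, adjusted p = 0.00396) and -1.56 (SE 0.34, adjusted p = 0.0171). Acaa1a stood at 12.74, 12.17 and 12.43 with MMF, 12.30, 12.15 and 12.63 with FK506, 12.05, 12.45 and 12.15 with prednisone and 12.48, 12.22 and 12.52 with multi-target, below a lowest healthy value of 13.18. Its differences were -0.84 (SE 0.18, adjusted p = 0.0108), -0.92 (SE 0.18, adjusted p = 0.0089), -1.07 (SE 0.18, adjusted p = 0.00161) and -0.88 (SE 0.18, adjusted p = 0.0122). No treated mouse reached the healthy range of either gene.

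Acsm3 was the other gene called in all 4 arms. It had not passed in the disease comparison, where vehicle mouse 17 stood at 9.19. It stood at 6.76, 5.55 and 6.01 with MMF, 5.91, 5.75 and 5.83 with FK506, 5.35, 5.92 and 5.70 with prednisone and 6.11, 5.89 and 7.08 with multi-target, against 8.76, 8.88 and 8.23 in the healthy mice. Differences ran from -2.26 (adjusted p = 0.0371) with multi-target to -2.97 (adjusted p = 0.00499) with prednisone. Ehhadh was lower with prednisone, at 13.61, 14.24 and 13.74 (-1.18, SE 0.25, adjusted p = 0.00644), and with multi-target, at 14.32, 13.92 and 14.18 (-0.90, SE 0.25, adjusted p = 0.0433). With MMF and FK506 it stood at 14.03, 14.43 and 14.51 and 14.12, 14.12 and 14.62, differences of -0.72 and -0.75 that did not pass (adjusted p = 0.0606 and 0.0784). Cat was lower with prednisone (-1.02, SE 0.23, adjusted p = 0.0102) and did not pass with multi-target (-0.79, SE 0.23, adjusted p = 0.0562).

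Mitochondrial calls against healthy were found mainly with prednisone and MMF. Cpt2 (-0.96 and -1.06), Hadha (-0.61 and -0.64) and Etfdh (-0.59 and -0.62) were lower in both. Acaa2 (-0.89, SE 0.25, adjusted p = 0.0248) and Decr1 (-0.89, SE 0.28, adjusted p = 0.0423) were lower with prednisone, and Acsm2 (-1.71, SE 0.52, adjusted p = 0.0389) with MMF. Each call just named held in 6 or 7 of 12 alternatives. Decr1 and Acsm2 had not passed in the disease comparison. Cpt2 stood at 12.10, 12.42 and 11.77 with prednisone and 12.70, 11.65 and 11.61 with MMF, mouse 1 being the nearest to the healthy mice. With FK506 and multi-target, Cpt2 differed from healthy by -0.83 and -0.96 without passing (adjusted p = 0.094 and 0.059). A call in one arm and not in another does not show that the arms differ; those differences are given further on.

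**Figure D4:**
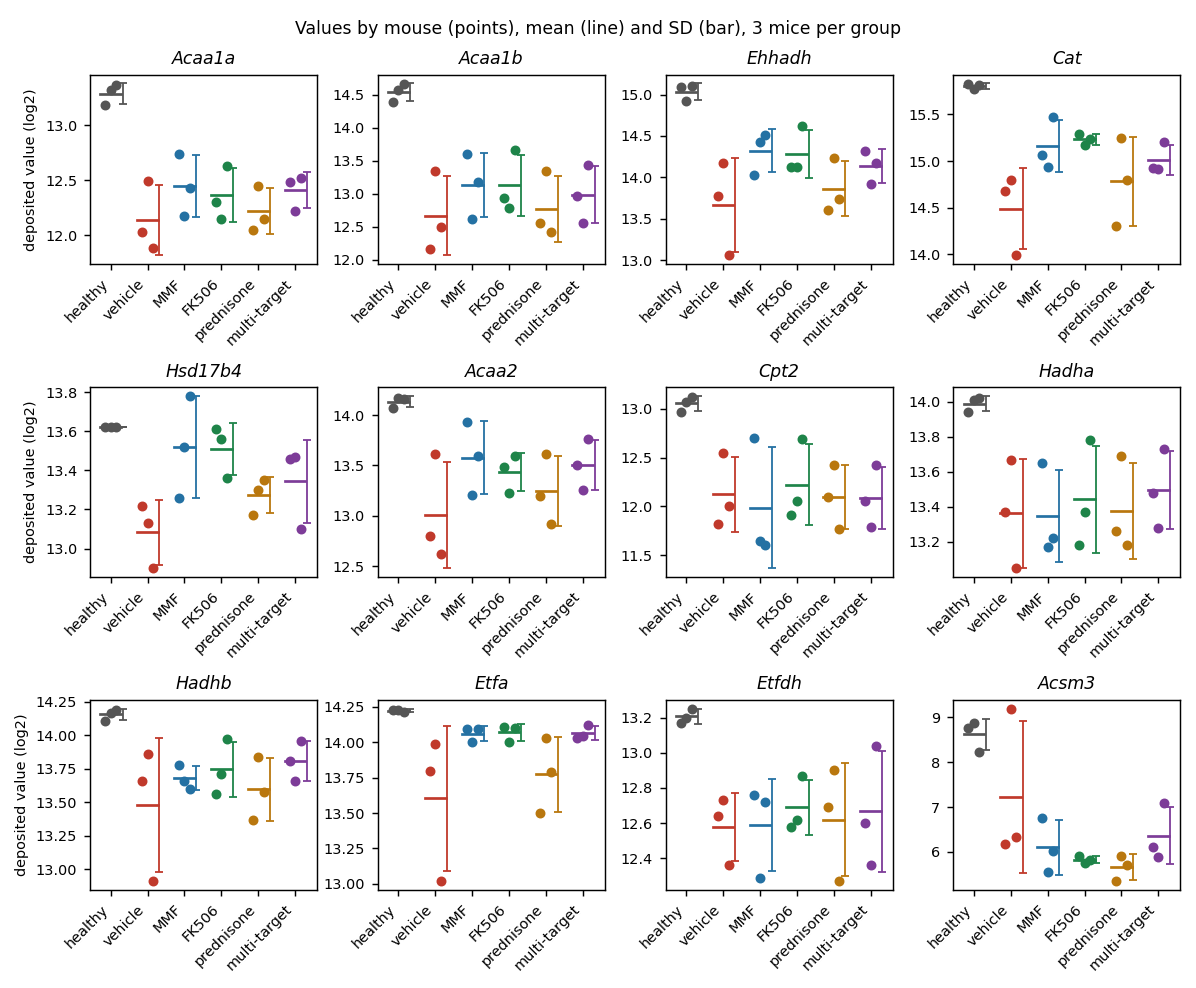
Deposited log2 values by mouse for the 12 genes called in the most comparisons, with the mean as a line and the SD as a bar for 3 mice per group and a separate vertical scale per gene. No mouse of any treated arm reached the 3 healthy mice for Acaa1a, Acaa1b, Ehhadh or Cat, whereas Hsd17b4 exceeded them in 1 MMF mouse (13.78).

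The counts against healthy moved with single libraries. Without MMF mouse 1 there were 19 calls with MMF, where 16.1% of all genes were called lower, and without mouse 14 there were 0, while leaving out any healthy mouse or MMF mouse 27 gave 1 or 2. With FK506 the count ran from 0 without mouse 12, the library with adrenal transcripts, to 6 without mouse 24, and was 1 without healthy mouse 1 or 2. With prednisone it was 4 without mouse 23 and 5 without mouse 35 or any healthy mouse. With multi-target it was 0 without mouse 18 or healthy mouse 3, and 1 without mouse 6 or healthy mouse 1 or 2. Apart from the fit without MMF mouse 1, these counts are given without the share of all genes called in the same fit. They show that calls depended on single mice, not that the 35 genes moved more than other genes. Acaa1a, Acaa1b, Ehhadh and Acsm3 with prednisone passed in every alternative that was run for them. Ehhadh with multi-target passed in 5 of 12.

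Among genes of the wider pathway, Abcd3 was lower in all 4 arms, at -0.98 with MMF, -0.63 with FK506, -0.95 with prednisone and -1.03 with multi-target. Its call held in all 12 alternatives with MMF, prednisone and multi-target and in 7 of 13 with FK506. Of the 39 further peroxisomal enzymes and transporters, 10 were lower with MMF, 1 with FK506, 7 with prednisone and 1 with multi-target, and none was higher. Of the 30 further mitochondrial genes the lower calls numbered 4, 0, 4 and 0, and Acsl5 was higher in the last 3 arms (0.69, 0.64 and 0.61), calls that held in 6 of 13, 7 of 12 and 4 of 12 alternatives. Vnn1, a PPAR alpha target that makes pantothenate, was lower in all 4 arms (-1.09, -1.27, -1.41 and -1.24), which held in 7 of 12, 8 of 13, 12 of 12 and 8 of 12 alternatives. Of the 15 further PPAR alpha target genes 4, 3, 5 and 4 were lower and none was higher.

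The multi-target arm was compared with each single drug, and the single drugs with each other, in 6 pairs. No member and no gene of the 15035 passed in any pair (limma, 0% of genes called higher or lower in each of the 3 multi-target comparisons). At an unadjusted p below 0.05 the members numbered 1 against MMF, 0 against FK506 and 0 against prednisone for multi-target. Over all genes 7.49%, 0.406% and 3.35% passed that threshold in the 3 multi-target comparisons. For FK506 against MMF, prednisone against MMF and prednisone against FK506, the smallest adjusted p of a member was 0.867, 0.269 and 0.982 (limma). The intervals were wide. For Acaa1b the multi-target arm differed by -0.15 from MMF (95% interval -0.88 to 0.59), by -0.14 from FK506 (-0.88 to 0.59) and by 0.21 from prednisone (-0.52 to 0.95). For Ppara the same differences were -0.72 (-1.55 to 0.11), -0.21 (-1.04 to 0.61) and -0.26 (-1.09 to 0.56).

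**Figure D5:**
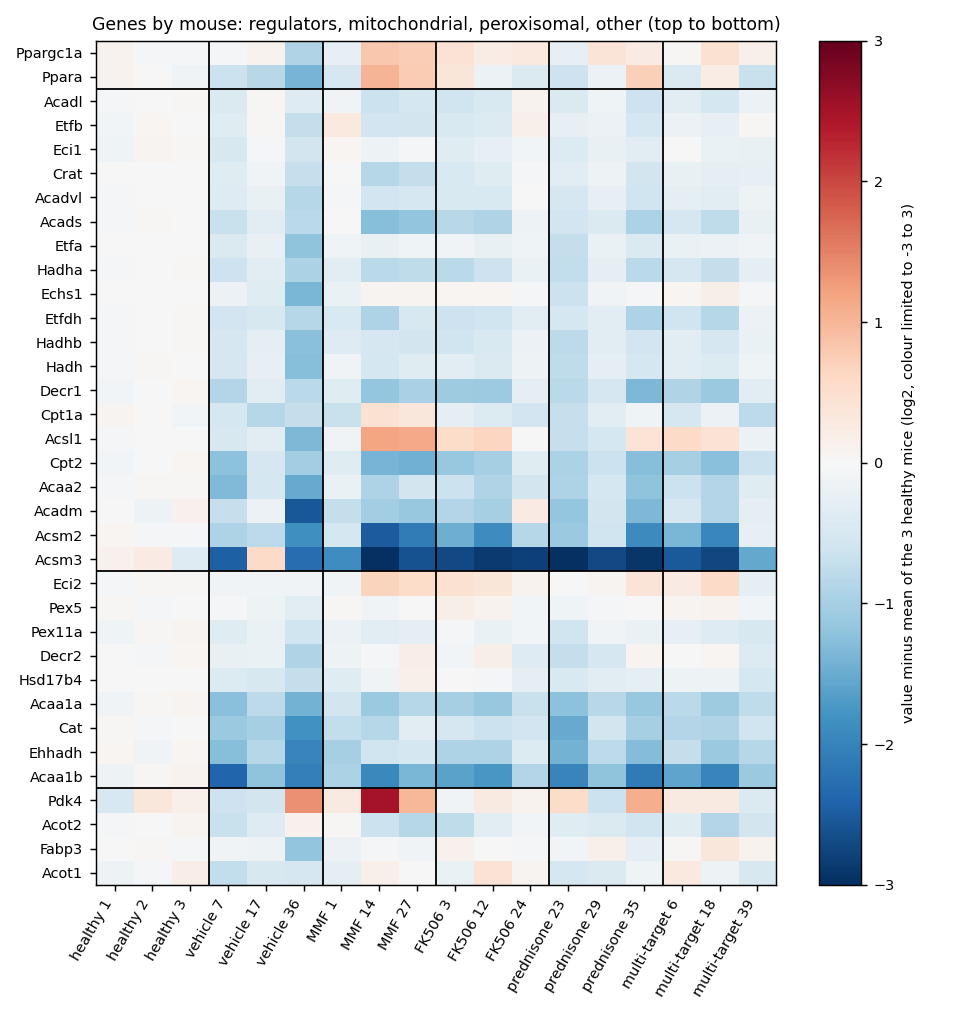
Log2 value of each of the 35 genes (rows) in each of the 18 mice (columns) minus the mean of the 3 healthy mice, with colour limited to -3 to 3 and black lines between groups and between compartments. Acaa1a, Acaa1b, Ehhadh and Cat are blue in all 15 MRL/lpr mice, and Acsm3 in all but vehicle mouse 17, while Acsl1 and Ppara are red in MMF mice 14 and 27.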

How the data were processed

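Kidney cortex RNA from 18 mice in 6 groups of 3 was sequenced from TruSeq libraries, per the labels' protocols. The deposited values are log2 expression values made by the authors. The submitters' processing notes name limma and mm10. For the aligner and the gene annotation, the entry is "not given in the sources used here". The values of 11169 of 15035 genes (74.3%) corresponded to whole reads in at least 17 libraries, within 0.02 reads, which gave the read totals; the remaining genes did not, so that no count test was run.

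All 15035 genes were fitted in limma 3.58.1 (R 4.3.3) with 1 mean per group over all 18 libraries, a mean-variance trend, no filter and no pseudocount. Adjusted p-values in the text are limma's, with Benjamini-Hochberg adjustment over all genes in each of 12 comparisons and a threshold of 0.05, on 12 residual degrees of freedom before moderation. The fit was tested on simulated data with known changes. These were larger than any difference that passed in the disease comparison, and each gene had the same spread in every group. The simulation therefore does not show how well smaller changes, or groups of unequal spread, are handled. Mouse numbers in the titles mark the replicates of a group.

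The 35 genes, the other gene lists and the library exclusions were chosen with earlier results of these data known, so no count over a list is independent support for what was already seen. All 35 genes are described; values by mouse are given for the 12 genes called in the most comparisons, ties by the smallest p in the disease comparison, for Ppara and Ppargc1a, and for a few others. From each other list up to 3 called genes with the smallest p were named, unless stated. Alternatives were quantile normalization, centring, array weights, a filter, a pseudocount of 16, fits of only the 2 groups compared, and libraries left out. Promoter windows came from RefSeq (GRCm38.p6) and gene positions from GENCODE. Protein sequences were not used here, and a few genes of the other lists are not reported here.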

Additional observations from a re-analysis of the deposited data

How the results depend on the processing

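With array weights, which gave single libraries very unequal weight, the number of the 35 genes called became 22 in the disease comparison, 16, 7 and 7 for MMF, FK506 and multi-target against vehicle, 27, 25, 22 and 28 for MMF, FK506, prednisone and multi-target against healthy, and 12 and 3 for multi-target against MMF and FK506. These weights raised calls over all genes too, to 36.7% for disease, 44.9%, 15.5% and 18.5% for those 3 arms against vehicle and 59.1%, 56.9%, 37.9% and 66% for the 4 arms against healthy, and to 46.1% and 13.6% for multi-target against MMF and FK506. The median differences became -0.45 for disease, 0.04, 0.01, -0.07 and 0.10 for the 4 drugs against vehicle and -0.53 for MMF against healthy. Acot1 in multi-target against healthy reversed to 0.26 and Acot2 in multi-target against MMF to 0.35 under these weights. Multi-target mouse 6 had a weight of 26.58 and mice 18 and 39 of the same arm 0.58 and 0.43, while MMF mouse 1 had 0.10. The multi-target counts under these weights therefore rested mostly on mouse 6. Centring libraries on their median gave 22 calls and a median of -0.82 for disease (25.4% of all genes called), and 16 calls and a median of -0.65 for prednisone against healthy (16.6%). Fitting only the 2 groups compared gave 14, 20 and 14 calls for FK506, prednisone and multi-target against healthy (24.4%, 27.3% and 21.5% of all genes). Without vehicle mouse 17 and FK506 mouse 12 the median for MMF against vehicle was 0.49. The cause of these changes was not tested.

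Leaving out 1 mouse at a time gave 5 to 18 calls for disease (medians -0.73 to -0.45), 0 to 12 for MMF against vehicle (0.09 to 0.49), 0 to 19 for MMF against healthy (-0.53 to -0.27), 0 to 6 for FK506 against healthy, 4 to 11 for prednisone against healthy, 0 to 6 for multi-target against healthy and 0 to 4 for multi-target against MMF, the last without MMF mouse 1. The median for prednisone against vehicle ran from -0.06 to 0.22. The ranges of calls are given here without the share of all genes called in the same fits. They show only how far calls depended on single mice. Of 5273 values of single genes under alternatives, 239 newly passed the threshold, 130 no longer passed and 2 that passed under the alternative had the other sign. A further 386 changed sign without passing in either case, the largest such difference being 0.87 in size before the change. No paired analysis was possible because the mouse numbers pair no mice across groups. With 3 mice per group, small differences were not detectable.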
